A study of Mus musculus with 13 samples.

Results

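The Gapdh and Ppia mRNAs, 2 transcripts that laboratories commonly use as reference RNAs, were followed by their Ensembl identifiers (ENSMUSG00000057666 and ENSMUSG00000071866) through a table of 52 RNAs and 13 RNA-seq libraries. The rule that picked them used their identifiers alone, and the values show how far they were level between the libraries. The libraries held RNA that was co-precipitated from RAW 264.7 cells, a mouse macrophage cell line, with an antibody against P23, the HSP90 co-chaperone encoded by Ptges3, or with a luciferase antibody (LUC) as control. All cells were UV-crosslinked, and cytoplasmic extract was used for the immunoprecipitations (IP). The groups were P23 IP of untreated cells (0 h, n = 3), P23 IP after 2 h with 10 ng/ml LPS (n = 3), LUC IP at 0 h (n = 3) and LUC IP at 2 h (n = 2, after the authors removed a further replicate as an outlier), with 1 input library at each time point. The replicates are described as independent biological ones of a single cell line. The product named for the P23 antibody differs between the sample labels and the methods of the study.

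The study had selected all 52 RNAs, Gapdh and Ppia included, because they were higher in P23 IP than in LUC IP at 0 h in these libraries. Values of that contrast are therefore descriptions, and the selection also favors a smaller difference at 2 h. Counts summed over the 52 RNAs were between 3751 and 11866 in the IP libraries and were 24335 and 25437 in the inputs. These sums are not the sequencing depth, since the other genes were not analysed here. Of 16 commonly used reference genes only Gapdh and Ppia were in the table. None of the 4 T cell, 3 B cell or 4 fibroblast and epithelial markers was among the 52 RNAs, and the cell identity was not tested further.

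GAPDH catalyzes the step of glycolysis that oxidizes glyceraldehyde 3-phosphate, and PPIA (cyclophilin A) is a peptidyl-prolyl isomerase that assists protein folding and is the cellular receptor of cyclosporin A. Both proteins are abundant in most cell types. Their mRNAs have been copied back into mammalian genomes many times as processed pseudogenes, intronless copies made by reverse transcription. In an RNA IP, an mRNA used as reference is meant to report how much RNA the beads carry without regard to the antibody. Gapdh was the only one of 16 glycolysis genes in the table and Ppia the only one of 12 peptidyl-prolyl isomerases, so neither pathway could be followed further.

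Because the deposited counts were of uniquely placed reads, the copies of both mRNAs in the genome were located first. Gapdh is on the minus strand of GRCm38 at chr6:125161715-125166467. The 3′ end of this annotated gene span overlaps Iffo1 on the opposite strand (chr6:125145241-125161782), and counting did not use the strand. The 3′ UTR window of Gapdh shown further below lies outside Iffo1, and the part of the overlap in the counts was not tested. Ppia is on the plus strand at chr11:6415443-6419817 and overlaps no annotated gene. For each gene 1 annotated transcript (GENCODE M21) was chosen, by coding status, RefSeq match, annotation tags and then length. These mRNAs were cut into windows of 50 bases, the length of 1 read. Each window was searched on both strands of 22 chromosome sequences for exact matches. Of the 1371 windows of the Gapdh mRNA, 14.4% (197) occurred at no second place in the genome. Of the 1121 windows of the Ppia mRNA, 38.1% (427) did. Among the other 50 RNAs the median was 100%, 27 had no copied window at all, and only Nsa2 (12.9%) was lower than Gapdh. By number of other loci Gapdh did not stand first, since 6 RNAs had windows that matched more places.

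The copies covered the whole coding part of both mRNAs. None of 953 coding windows of Gapdh and none of 446 coding windows of Ppia were unique, whereas all 191 and all 419 windows inside the 5′ UTR were. The 3′ UTR held 0 unique windows of 129 for Gapdh and 2 of 158 for Ppia. In both mRNAs the copied stretch began 43 bases before the start codon, after 197 bases of Gapdh and 425 of Ppia. All unique Gapdh windows, and all but 2 of Ppia, began in these leading bases of the chosen transcripts. The unique shares thus depend on the annotated 5′ UTRs (240 and 468 bases). A transcript that started further downstream would hold fewer unique windows. Gapdh windows matched 233 other loci on 21 chromosomes, 218 of them in annotated pseudogenes and 9 in no annotated gene. Ppia windows matched 41 other loci on 17 chromosomes, 34 of them in annotated pseudogenes and 5 in no annotated gene. The copy that shared most windows with Gapdh shared 1131, and the one closest to Ppia (Gm10123) shared 691.

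The start of the most often copied coding window of each mRNA is shown because a single read from such a stretch has no unique place. Capitals mark bases that lie inside a copied window, here all 30. The Gapdh stretch (chr6:125162918-125162947, minus strand) opened a window with 83 other exact matches, and the Ppia stretch (chr11:6419194-6419223, plus strand) one with 17.
Gapdh: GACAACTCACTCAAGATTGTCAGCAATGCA
Ppia: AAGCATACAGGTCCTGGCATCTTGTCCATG

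**Figure D1:**
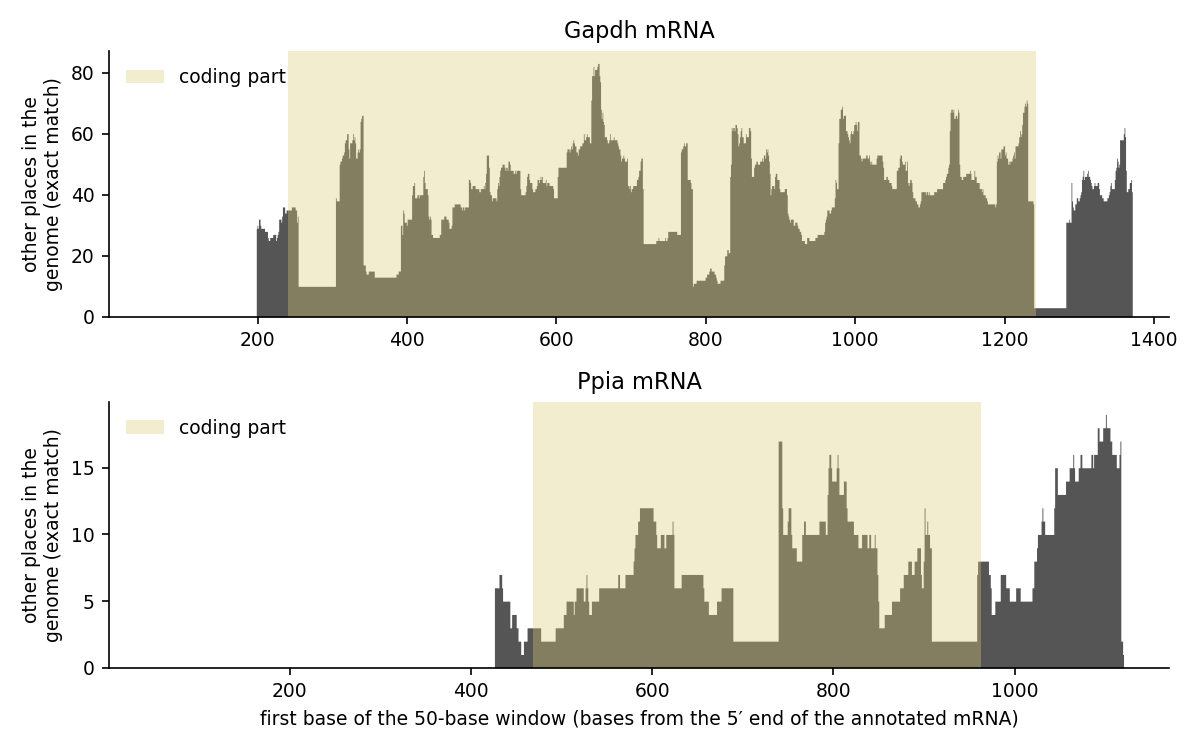
Number of other places in the GRCm38 genome that match each 50-base window exactly (y axis) against the first base of the window along the annotated mRNA (x axis, bases from the 5′ end), for Gapdh and Ppia. The shaded span is the coding part, over which no window is at 0, and the counts reach 83 for Gapdh and 19 for Ppia.

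The exons of all annotated transcripts of a gene, on which reads are counted, also include stretches outside these mRNAs, such as retained introns. Over all annotated exons 75.4% of Gapdh windows and 82.9% of Ppia windows were unique, but 94.3% and 84.7% of those unique windows lay outside the exons of the mRNA described above. Over the other 50 RNAs the medians of these shares were 99.6% and 19.7%. A read pair can also be placed by a mate in a unique stretch. The reads themselves were not analysed, so the part of the copies in the counts was not tested. Per kilobase of annotated mRNA, the 0 h input held 85.9 normalized counts of Gapdh and 14.6 of Ppia, against a median of 17.5 over the 52 RNAs. These per-length levels, which also depend on the transcript chosen, ranked Gapdh 7 and Ppia 32 from the highest. Per kilobase of all annotated exons the ranks were 13 and 38. Normalized counts are raw counts divided by the size factor of the library, read from the deposited values.

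At 0 h, Gapdh had normalized counts of 160.7, 110.7 and 152.2 in the 3 P23 IP libraries (raw counts 119, 110 and 155). The LUC IP libraries had 104.2, 90.6 and 85.2 (raw 48, 70 and 82). Every P23 IP library was above every LUC IP library, with means of 141.2 ± 26.8 and 93.3 ± 9.8 (SD, n = 3 each). Ppia had 81.0, 63.4 and 46.2 in P23 IP (raw 60, 63 and 47) and 39.1, 18.1 and 30.1 in LUC IP (raw 18, 14 and 29). Here too the groups did not overlap, as for 80.4% of the 51 RNAs that had counts in every library of the comparison, and the means were 63.5 ± 17.4 and 29.1 ± 10.5 (SD, n = 3 each). The lowest P23 IP library was close to the highest LUC IP library for both mRNAs.

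**Figure D2:**
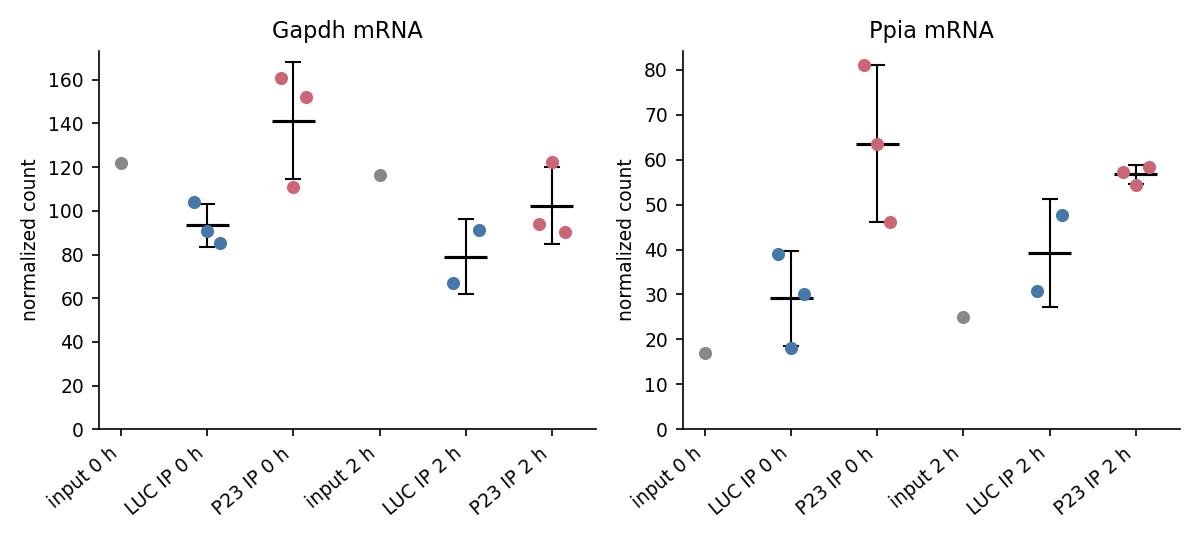
Normalized count (y axis, linear from 0) of Gapdh and Ppia in each library, grouped by input, LUC IP and P23 IP at 0 h and after 2 h of LPS (x axis). Points are libraries, horizontal lines are group means and bars are SD, with 1 library per input. The 0 h P23 points lie above the 0 h LUC points for both mRNAs, and the 2 h groups overlap for Gapdh only.

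Both mRNAs were thus higher in P23 IP, Gapdh by a log2 fold change of 0.61 (SE 0.18, adjusted p = 0.0058) and Ppia by 1.16 (SE 0.26, adjusted p = 0.0018) in edgeR's quasi-likelihood test with Benjamini-Hochberg adjustment over the 52 RNAs. This contrast chose the rows and called 100% of them, so nothing is read from these calls. The median of all 52 RNAs was 0.66, which placed Gapdh at rank 32 and Ppia at rank 8 from the highest. When each library was instead set to the same median over the table, the median of the 52 RNAs moved to -0.01, Gapdh turned to -0.073 and Ppia fell to 0.47, with adjusted p-values of 0.81 and 0.33. That scale removes by its construction what the 52 selected RNAs share. The differences of the reference mRNAs from the middle of the table, rather than their distance from 0, were therefore what both scales had in common.

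After 2 h of LPS the P23 IP libraries had 94.0, 122.5 and 90.4 normalized counts of Gapdh (raw 59, 90 and 62), and the LUC IP libraries 66.9 and 91.2 (raw 37 and 65). The ranges overlapped, with means of 102.3 ± 17.5 (SD, n = 3) and 79.0 ± 17.1 (SD, n = 2). Ppia had 57.4, 54.4 and 58.4 in P23 IP (raw 36, 40 and 40), and 30.7 and 47.7 in LUC IP (raw 17 and 34). All P23 IP libraries were above both LUC IP libraries for Ppia, as for 64.7% of the 51 RNAs. The means were 56.7 ± 2.0 (SD, n = 3) and 39.2 ± 12.0 (SD, n = 2).

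Neither mRNA passed the test at 2 h, in libraries that the selection had not used, where edgeR called 7.69% of the 52 RNAs higher and 1.92% lower in P23 IP. The log2 fold change of P23 IP over LUC IP was 0.36 for Gapdh (SE 0.22, 95% interval -0.10 to 0.82, adjusted p = 0.21 with edgeR) and 0.50 for Ppia (SE 0.29, 95% interval -0.12 to 1.12, adjusted p = 0.20 with edgeR). The intervals include both no difference and the differences seen at 0 h for Gapdh, while that of Ppia ends just below its 0 h value. These differences rested largely on single LUC IP libraries at 2 h. Without replicate 1 they were 0.17 for Gapdh and 0.25 for Ppia, and without replicate 2 they were 0.62 and 0.88. Gapdh was also lower (0.21) without P23 IP replicate 2 at 2 h, and neither mRNA passed the test in any of these fits. The median over all RNAs was 0.40, so both lay near the middle of the table. With each library set to the same median this median became -0.06 and Gapdh turned to -0.12.

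The change of the P23 over LUC difference from 0 h to 2 h was tested as an interaction, in which 1.92% of the RNAs were called lower and 0 higher, with 5 at an unadjusted p under 0.05. It was -0.25 on the log2 scale for Gapdh (SE 0.28, 95% interval -0.84 to 0.34, adjusted p = 0.78 with edgeR) and -0.65 for Ppia (SE 0.40, 95% interval -1.49 to 0.18, adjusted p = 0.50 with edgeR). Without LUC IP replicate 1 at 2 h the values were -0.44 and -0.91, without LUC IP replicate 2 at 2 h they were 0.0073 and -0.28, and over all libraries left out in turn they ranged from -0.44 to 0.0073 and from -0.91 to -0.28. A difference between the time points was thus not shown for either mRNA. The table as a whole had a median of -0.26, a direction that the selection at 0 h favors.

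Within the P23 IPs, Gapdh fell by 0.45 on the log2 scale from 0 h to 2 h (SE 0.17, adjusted p = 0.042 with edgeR). The P23 IP groups overlapped, since the lowest 0 h library (110.7) was below the highest 2 h library (122.5). In this contrast 40.4% of the 52 RNAs were called lower and 11.5% higher, with a median of -0.32, and 21 and 6 such calls became 15 and 13 with each library set to the same median. The Gapdh call was not kept by DESeq2 (adjusted p = 0.084), by limma on the deposited log2 values (adjusted p = 0.072), on the equal-median scale (-0.18, adjusted p = 0.33), with the replicate number as a block (adjusted p = 0.056) or without any one of P23 IP replicates 1 and 3 at 0 h and 1 and 3 at 2 h (adjusted p between 0.12 and 0.15 in edgeR). Ppia changed by -0.14 (SE 0.23, 95% interval -0.62 to 0.34, adjusted p = 0.59 with edgeR) and had the opposite sign on the equal-median scale (0.13).

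Within the LUC IPs neither mRNA passed the test, while 15.4% of the RNAs were called higher and 11.5% lower at 2 h. Gapdh changed by -0.20 (SE 0.22, 95% interval -0.67 to 0.26, adjusted p = 0.54 with edgeR). Ppia changed by 0.51 (SE 0.32, 95% interval -0.17 to 1.20, adjusted p = 0.24 with edgeR). These values too depended on single libraries. Without LUC IP replicate 1 at 2 h they were -0.016 for Gapdh and 0.77 for Ppia, and without replicate 2 at 2 h they were -0.46 and 0.13. Without LUC IP replicate 1 at 0 h Gapdh was at -0.13, and without replicate 2 at 0 h Ppia was at 0.26. The LUC and P23 contrasts with LPS share their 0 h libraries with the contrast that selected the RNAs.

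**Figure D3:**
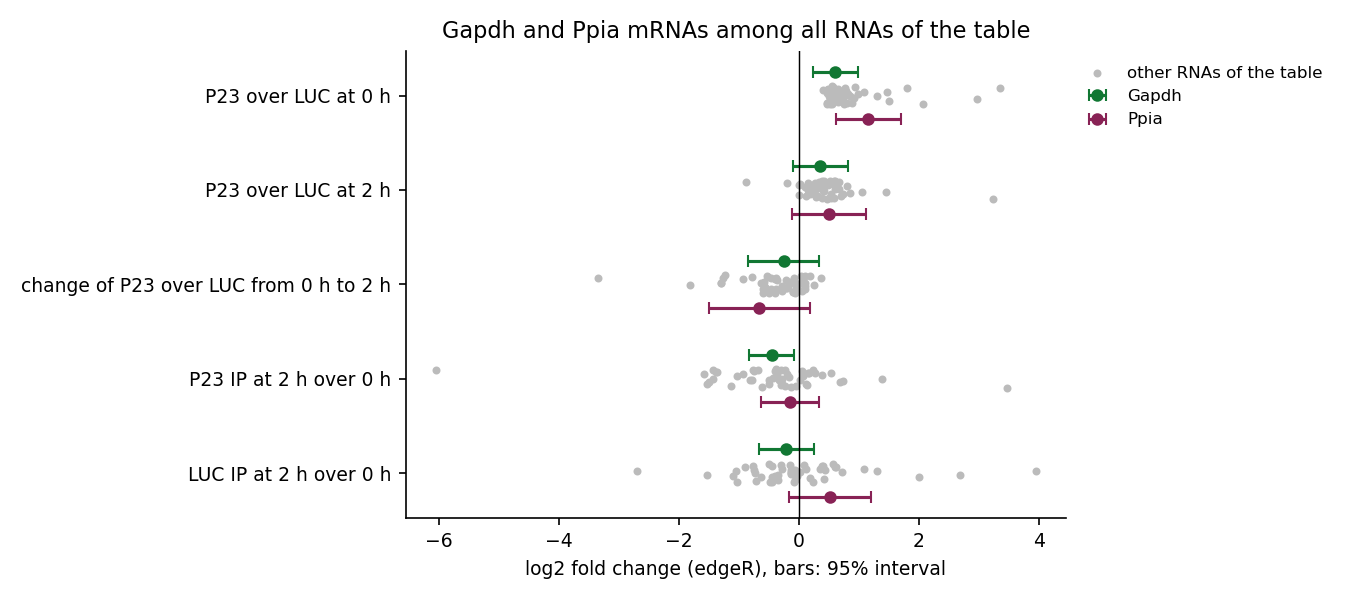
Log2 fold change from edgeR (x axis) of Gapdh and Ppia with 95% intervals, in each of the comparisons named on the y axis, with the other 50 RNAs of the table as gray points. The Gapdh value lies near the middle of the gray points in every row, and the Ppia value lies to the right of most of them for P23 over LUC at 0 h.

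In the inputs, which hold the RNA before precipitation, Gapdh differed little between the time points and Ppia was higher at 2 h by more than counting error. Gapdh had 121.9 normalized counts at 0 h and 116.2 at 2 h (raw 744 and 657). The log2 ratio of 2 h over 0 h was -0.07, with a counting interval of -0.22 to 0.08 (exact Clopper-Pearson, 95%). Ppia had 17.0 and 24.9 (raw 104 and 141), a log2 ratio of 0.55 with a counting interval of 0.17 to 0.93. Ppia ranked 5 from the highest of the 51 RNAs with counts in both inputs, whose median was 0.01 and of which 37 were within 0.5 of no change. With 1 input per time point there is no replicate check, and the intervals cover counting error only.

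Relative to the input of the same time point, Gapdh was among the RNAs recovered least in all 4 IP groups, whereas Ppia was near the middle of the table. Mean Gapdh in LUC IP was 0.765 times the input at 0 h and 0.680 times at 2 h. In P23 IP it was 1.16 and 0.880 times the input. Its rank from the highest was 46 and 49 of 52 in LUC IP and P23 IP at 0 h, and 49 and 48 of 51 at 2 h. Ppia was recovered at 1.71 times the input in LUC IP and 3.73 times in P23 IP at 0 h, and at 1.57 and 2.27 times at 2 h, with ranks between 20 and 23. The control antibody thus recovered Ppia above its input level on this scale, as it did the median RNA of the table (log2 ratio of 0.61 at 0 h and 0.50 at 2 h). On the equal-median scale every one of these log2 ratios was lower, from -1.19 to -0.91 for Gapdh and from 0.15 to 0.66 for Ppia.

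The count of Ppia divided by that of Gapdh in the same library needs no scale between libraries, and if both mRNAs behaved alike it would be level. At 0 h it was 0.504, 0.573 and 0.303 in P23 IP replicates 1 to 3, against 0.375, 0.200 and 0.354 in LUC IP. At 2 h it was 0.610, 0.444 and 0.645 in P23 IP, against 0.459 and 0.523 in LUC IP. The inputs had 0.140 at 0 h (95% exact interval of counting error 0.113 to 0.172) and 0.215 at 2 h (0.178 to 0.258). The ratio was higher in each of the 11 IP libraries than in the input of its time point, although the interval of LUC IP replicate 2 at 0 h (0.104 to 0.358) included the input value. By group means of IP over input, Gapdh ranked between 46 and 49 from the highest and Ppia between 20 and 23. Most other RNAs of the table therefore also rose relative to Gapdh, and the higher ratio is not particular to Ppia.

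None of the 4 comparisons of the ratio between IP groups passed the test, and none of these designs can give a p below 0.1. The log2 ratio was higher in P23 IP than in LUC IP by 0.57 at 0 h (SE 0.40, p = 0.3, BH-adjusted p = 0.5) and by 0.19 at 2 h (SE 0.19, p = 0.5, BH-adjusted p = 0.5), both in exact two-sided permutation tests. From 0 h to 2 h it was higher by 0.33 in P23 IP (SE 0.33, p = 0.5) and by 0.72 in LUC IP (SE 0.30, p = 0.2), also in exact two-sided permutation tests, and both had a BH-adjusted p of 0.5 over these 4 comparisons. The groups of 3 comparisons overlapped, and the 2 LUC IP libraries at 2 h were above all 3 at 0 h. How many other RNAs separate in this way relative to Gapdh was not counted, so nothing is read from that separation.

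**Figure D4:**
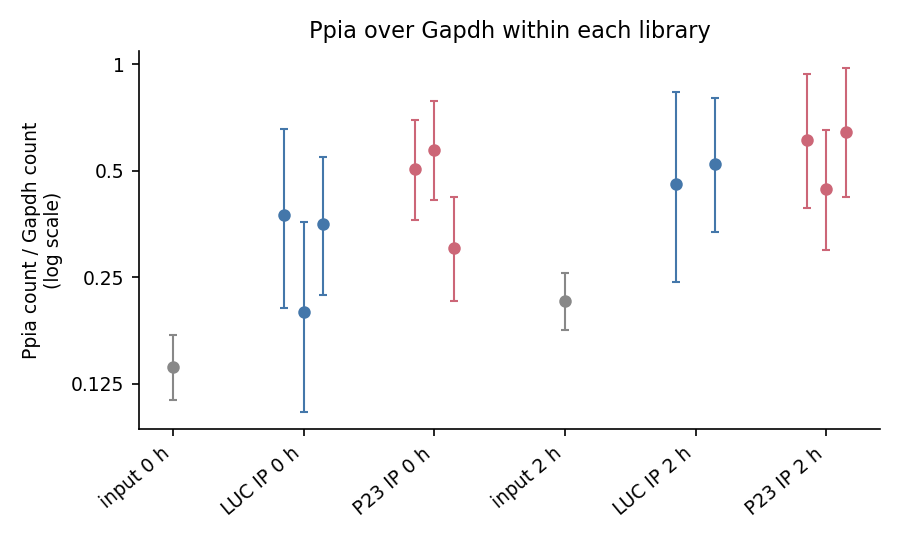
Ppia count divided by Gapdh count (y axis, log scale) in each library, by group (x axis). Points are libraries and bars are exact 95% intervals of counting error, and the inputs (0.140 and 0.215) are below the IP libraries of the same time point (0.200 to 0.573 at 0 h and 0.444 to 0.645 at 2 h).

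Over the 11 IP libraries Gapdh varied less than Ppia. Gapdh ranged from 66.9 to 160.7 normalized counts, a 2.40-fold span, and Ppia from 18.1 to 81.0, a 4.47-fold span. The SD of the log2 normalized counts was 0.37 for Gapdh and 0.61 for Ppia, against a median of 0.43 over 51 RNAs. Counted from the most level RNA, Gapdh was at rank 15 and Ppia at rank 37, and the most level were Paf1 (0.28), a subunit of an RNA polymerase II elongation complex, Msi2 (0.28), an RNA-binding protein, and Erf (0.29), a transcriptional repressor. Within groups the pooled SD was 0.25 for Gapdh (rank 25, the median also being 0.25) and 0.41 for Ppia (rank 46). Neither mRNA was thus among the most level of these RNAs. All of them were selected for a P23 over LUC difference at 0 h, which the SD over the 11 libraries includes.

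Part of this spread was of the size of counting error. The Ppia counts in the IPs were between 14 and 63, and the coefficient of variation in LUC IP at 0 h was 36.1%, where counting alone gives 23.4%. In P23 IP at 0 h it was 27.4% against 13.4%. In P23 IP at 2 h the 3 libraries happened to lie closer together than counting error alone gives on average, with 3.6% against 16.1%. For Gapdh the coefficient was 10.5% in LUC IP at 0 h, below the counting value of 12.9%, and 19.0% in P23 IP at 0 h against 8.94%.

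The RNAs whose variance-stabilized values followed Gapdh most closely over the 11 IP libraries were Bcl2l2 (Pearson r of 0.92), an anti-apoptotic BCL2 family member, Erf (0.86) and Dlg4 (0.86), a scaffold protein of the postsynaptic density. Those closest to Ppia were Cfap36 (0.91), Ptges3 (0.90), which encodes P23 itself, and Tnfrsf11a (0.84), the receptor RANK. Gapdh and Ppia correlated with each other at 0.58, which ranked Ppia 35 among the 51 RNAs compared with Gapdh, and Gapdh 31 among those compared with Ppia. These values are descriptions over 11 libraries in 4 groups that share their size factors and the selection at 0 h.

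The effect of using these mRNAs as reference was followed by scaling each library to its own count of Gapdh, of Ppia or of the geometric mean of both. The study itself did not scale to these mRNAs. Its qPCR of precipitated RNA was normalized to added luciferase mRNA, and its mRNA levels in cells to Ndufv1. With the deposited size factors, the geometric mean of P23 IP over that of LUC IP at 0 h had a median of 1.60 over 51 RNAs, all of which were above 1. Scaled to Gapdh, the median was 1.07, with 31 RNAs above and 19 below 1. Scaled to Ppia, the median was 0.719, with 6 above and 44 below 1. The geometric mean of both gave 0.877, with 13 above and 38 below. The share of RNAs with every P23 IP library above every LUC IP library was 80.4% with size factors, 5.88% with Gapdh, 1.96% with Ppia and 3.92% with both. At 2 h the medians were 1.32 with size factors, 1.02 with Gapdh, 0.893 with Ppia and 0.954 with both, and the shares were 64.7%, 7.84%, 3.92% and 3.92%.

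Kif15, which encodes a mitotic kinesin and is the mRNA that the study followed, was above LUC IP in every P23 IP library on each of these scales. Its fold at 0 h was 7.84 with size factors, 5.23 with Gapdh, 3.51 with Ppia and 4.28 with both, or 2.97, 2.39, 1.81 and 2.10 on the log2 scale with SEs of 0.12, 0.24, 0.47 and 0.32. At 2 h the fold was 9.55, 7.36, 6.45 and 6.89, with log2 values of 3.26, 2.88, 2.69 and 2.78 and SEs of 0.49, 0.69, 0.79 and 0.74. The 2 h values moved with the LUC IP libraries, from 2.21 without replicate 2 to 3.55 without replicate 1 on the log2 scale with Gapdh as reference, and from 1.93 to 3.45 with Ppia. The SE was larger on each reference scale than with size factors. With size factors the change of Kif15 from 0 h to 2 h was 0.26 on the log2 scale (SE 0.37, adjusted p = 0.83 with edgeR). A difference between the time points was thus not shown here. The study reports less Kif15 with P23 after LPS, from ratios of mean TPM, qPCR and microscopy, which are other measures than these.

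Other mRNAs depended on the reference. Kif1b, which encodes an axonal transport kinesin, had a fold of 2.82 at 0 h with size factors, 1.88 with Gapdh and 1.27 with Ppia, and the P23 and LUC libraries overlapped on the Ppia scale. At 2 h its fold was 2.70, 2.08 and 1.82, with overlap on the Ppia scale. Kif13a, a kinesin of endosomal transport, had 2.08, 1.39 and 0.932, and its groups overlapped on both reference scales. At 2 h its fold was below 1 on each scale, at 0.877 with size factors, 0.676 with Gapdh and 0.592 with Ppia, and its groups overlapped on all of them (log2 SEs of 0.65, 0.85 and 0.97). Ptges3 had 1.38, 0.923 and 0.620 at 0 h and 1.43, 1.10 and 0.966 at 2 h, so that its direction at 0 h turned on either reference. The reference mRNAs were themselves selected for being higher in P23 IP at 0 h, so each 0 h ratio is lower on their scales than with size factors.

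**Figure D5:**
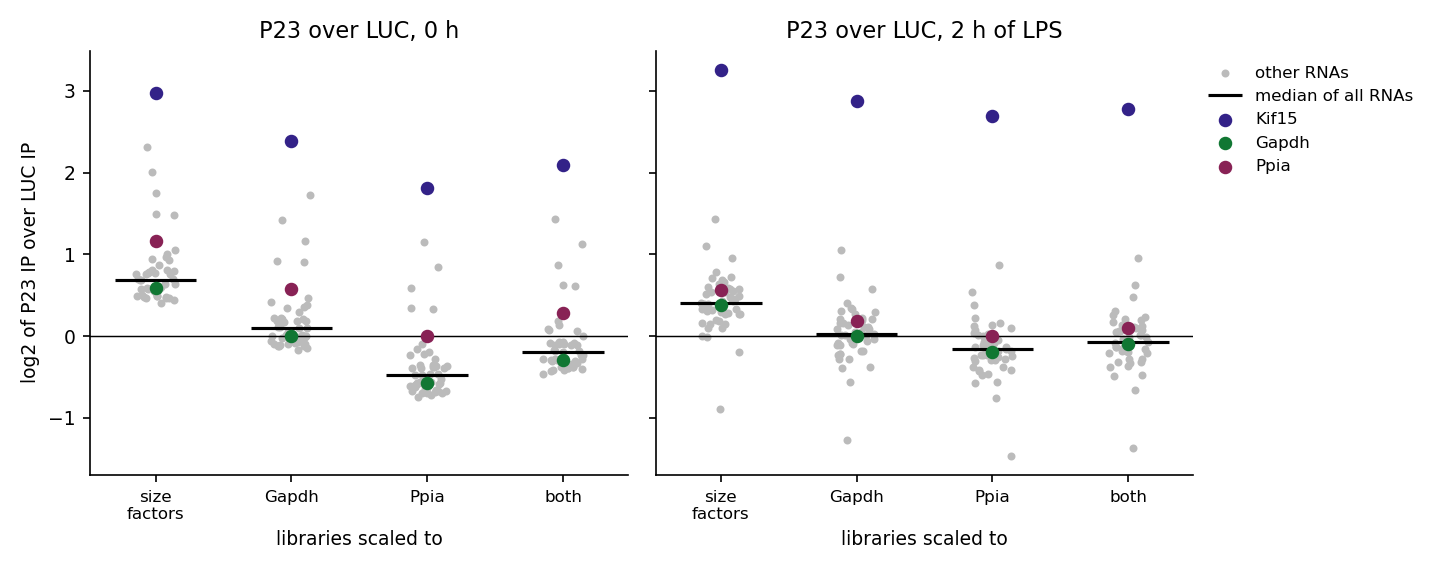
Log2 of P23 IP over LUC IP (y axis, difference of group means of log2 values) for 51 RNAs at 0 h and after 2 h of LPS, with libraries scaled to size factors, to Gapdh, to Ppia or to the geometric mean of both (x axis). Lines are medians of all RNAs, and Kif15 stays above the other points at 0 h and 2 h on each scale while the medians move from 0.68 to -0.48 at 0 h.

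The study described a U/G-rich element in the 3′ UTRs of the RNAs precipitated with P23, and the 3′ UTRs of both reference mRNAs were therefore searched for hexamers made only of U and G, on the mRNA strand and with overlapping hexamers counted. The 178-base 3′ UTR of Gapdh held 0 such hexamers and the 207-base 3′ UTR of Ppia held 3, all within 1 window of 30 bases. The 606-base 3′ UTR of Kif15 held 39, with up to 18 in a window. Over the other 42 RNAs of the table with an annotated 3′ UTR, the highest number in a 30-base window had a median of 14 and a range of 0 to 25, with 1 RNA at 0. Their median 3′ UTR was 1278.5 bases long, so that both reference mRNAs offered fewer windows than most.

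The window with most U/G hexamers is shown for each of these mRNAs, with bases that lie in such a hexamer in capitals. The Gapdh window, which has none, is the one richest in U and G (16 of 30 bases).
Kif15, chr9:123018411-123018440, plus strand: uauuuuaUUUUUUUUUUUUUUGGUUUUUUG
Ppia, chr11:6419703-6419732, plus strand: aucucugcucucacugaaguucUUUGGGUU
Gapdh, chr6:125161882-125161911, minus strand: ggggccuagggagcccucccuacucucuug

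The sequences differ visibly, with a long run of U in Kif15, a single short U/G run in Ppia and interrupting C and A bases throughout in Gapdh. A match or its absence describes these letters only, and the part of the element in the recovery of either mRNA was not tested.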

How the data were processed

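According to the study's methods, paired reads of total-RNA libraries were aligned to GRCm38 by TopHat2 2.0.14 with Ensembl release 83, after trimming by Trimmomatic 0.33 and quality control by FastQC 0.11.2. HTSeq 0.6.1 counted the unique reads of each gene on either strand. The authors deposited raw counts of 52 selected RNAs in 13 libraries. They also deposited variance-stabilized log2 values, from which 1 size factor per library was read. These were 0.461 to 1.02 in the IPs and 6.10 and 5.65 in the inputs. The authors' fold changes and p-values were not used.

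Counts were tested with edgeR 4.0.16 (quasi-likelihood, 4 group means over 11 IP libraries, these size factors, adjusted p of 0.05 or less). Because all tested RNAs had been selected, the spread was also estimated from them alone. The fit was tested on simulated data. DESeq2 1.42.0, limma 3.58.1, a minimum mean normalized count of 20, an equal median per library, TMM, a replicate block, the compared groups alone and each library left out were alternatives. Windows of 36 and 60 bases were alternatives for the sequence searches. All 52 identifiers matched GENCODE M21. Named RNAs were the reference mRNAs, the 3 most alike to each, the kinesin mRNAs of the study and Ptges3. Sequences came from the GRCm38 reference. The members and lists were chosen with earlier results of these data known.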

Additional observations from a re-analysis of the deposited data

How the results depend on the processing

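Setting each library to the same median, or TMM scaling, moved the median P23 over LUC log2 difference from 0.66 to about 0 at 0 h and from 0.40 to -0.06 at 2 h. Gapdh turned to -0.073 and -0.057 at 0 h and to -0.12 and -0.11 at 2 h, and Ppia went to 0.47 (adjusted p = 0.33) and 0.49 (adjusted p = 0.34) at 0 h in edgeR. Ppia in P23 IP at 2 h over 0 h turned to 0.13 and 0.17 on these scales. The Gapdh fall in P23 IP lost its call with DESeq2 (-0.46), limma (-0.43), the equal median (-0.18), TMM (-0.14) and when any one of 4 libraries was left out (-0.40 to -0.36). The call was kept without any one of the other 7 libraries, and all such values ranged from -0.61 to -0.36. For IP over input on the equal-median scale, the log2 ratio of Gapdh was -0.91 (LUC) and -1.01 (P23) at 0 h and -1.06 and -1.19 at 2 h, and that of Ppia 0.20, 0.66, 0.15 and 0.19. The SD over IP libraries became 0.21 (Gapdh) and 0.37 (Ppia). Leaving out single libraries gave a change of P23 over LUC of -0.44 to 0.0073 for Gapdh, positive without LUC IP replicate 2 at 2 h, and a P23 IP change of -0.34 to 0.050 for Ppia, positive without P23 IP replicate 1 at 0 h.

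Same-numbered libraries did not consistently deviate together (correlations of -0.41 to 0.45, above 0.1 in 3 of 15 pairs). Between P23 IP and LUC IP at 0 h the correlations were 0.29, 0.45 and -0.41 for replicates 1 to 3. Libraries with different numbers were not compared, so whether the numbers pair the libraries was not settled. With the replicate number as a block, Gapdh in P23 IP changed by -0.46 (adjusted p = 0.056, edgeR), and no other call for Gapdh or Ppia changed.

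Calls over the table moved from 52 to 2 at 0 h with either scale. At 2 h, 4 RNAs were called higher, 10 with DESeq2, 14 with the compared groups alone, 2 with either scale and 2 to 13 without single libraries. In P23 IP with LPS, 6 higher and 21 lower became 13 and 15 (equal median) or 14 and 15 (TMM). In LUC IP, 8 and 6 became 12 and 9 (equal median) or 12 and 8 (TMM). Of the alternatives computed, 235 values kept their direction and side of the threshold or stayed within their spread, 11 lost a call, 8 turned and 10 moved further. Windows of 36 bases gave 14.2% (Gapdh) and 37.6% (Ppia) unique. Low counts, 14 to 63 for Ppia in the IPs, limit what could be detected.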
